A study of Mus musculus with 8 samples.

Results

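The BCL2 family sets the threshold at which a cell dies by apoptosis. The 10 genes described here were chosen by name as members of that family measured in granulocyte-macrophage progenitors, out of 34199 genes in the count tables. Bcl2, Bcl2l1 (BCL-XL), Mcl1 and the Bcl2a1a, Bcl2a1b and Bcl2a1d copies (A1) encode survival proteins, Bak1 encodes an effector that can form pores in the outer mitochondrial membrane, and Bcl2l11 (BIM), Bid and Bad encode BH3-only proteins.

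Survival proteins hold the effectors BAK and BAX inactive by binding them, or by binding the BH3-only proteins that would activate them. When BH3-only proteins are in excess, the effectors oligomerise, cytochrome c leaves the mitochondria and caspases are activated. Myeloid cells are known for their reliance on MCL1, and A1 is a survival gene induced by NF-kappaB in granulocytes and activated lymphocytes.

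RNA was sequenced from immortalised granulocyte-macrophage progenitors (iGMPs) of C57Bl/6 origin. All groups carried HOXA9 fused to the hormone-binding domain of the estrogen receptor, which holds the cells in self-renewal while estradiol is present, and a GFP reporter at the lysozyme gene. There were 4 groups of 2 libraries. Estradiol was present at 150 ng/ml for uninduced cells, taken at 0 h. The CAF-1 OFF group was given 500 µM IPTG for 48 h with estradiol present, which switched on an shRNA against Chaf1b, a subunit of the histone chaperone CAF-1. IPTG control cells were treated with IPTG for 48 h in the culture medium shared by the series, which holds estradiol at 150 ng/ml, and the labels give neither their construct nor their IPTG dose. HOXA9 OFF cells were washed and kept without estradiol for 48 h, which lets them differentiate along the neutrophil lineage. The iGMPs are clonal, transgene-dependent lines and not primary progenitors. The study describes RNA-seq of independent sub-clones, but the labels tie no library to a sub-clone, and p-values measure the spread between these libraries.

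Gene counts per library were between 14044284 and 22423837. Levels are given in CPM, the count divided by the scaled library total and expressed on a common base. For Chaf1b both CAF-1 OFF libraries (18.7 and 9.71 CPM) lay far under the uninduced ones (96.8 and 100.2 CPM), so the targeted gene matched the labels. Among reads with 1 alignment, the share outside any gene was between 5.30% and 7.79%, except for 14.6% in IPTG control replicate 1. Alignments that were not unique made up from 41.89% (HOXA9 OFF replicate 2) to 51.47% (IPTG control replicate 1) of both kinds together. The 8 neutrophil markers summed to between 60.3 and 71.2 CPM in the 4 uninduced and IPTG control libraries, to 221 and 374.6 CPM in CAF-1 OFF and to 10490 and 7256 CPM in HOXA9 OFF, while the 7 progenitor markers summed to between 10660 and 15810 CPM outside HOXA9 OFF and to 7557 and 5561 CPM within it. Not all 7 had lower means there than in uninduced cells. Elane was at 360.8 ± 143 CPM in uninduced and 585 ± 217 CPM in HOXA9 OFF libraries, and Prtn3 at 1197 ± 358 and 1615 ± 291 CPM (SD). The 5 monocyte or macrophage markers found in the files summed to between 21.2 and 61.8 CPM outside HOXA9 OFF and to 958.8 and 1414 CPM within it, and none of the 3 T cell markers was above 3 counts in any library other than 1 marker in HOXA9 OFF replicate 2. In bulk RNA, fewer cells of a type and less RNA per cell cannot be told apart. The part of these shifts in the values below was not tested.

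The Bcl2a1 copies lie on chromosome 9 in mm9: Bcl2a1d at 88618126 to 88626708 on the minus strand, Bcl2a1a at 88851738 to 88857254 on the plus strand and Bcl2a1b at 89094047 to 89102665 on the plus strand. Their coding sequences have 519 bases each. Bcl2a1a and Bcl2a1b were identical at 97.9% of positions, Bcl2a1a and Bcl2a1d at 98.7% and Bcl2a1b and Bcl2a1d at 98.8%. The first 90 coding bases, all in exon 1, are shown because they hold 6 of the differing positions (capitals mark the positions at which the copies are not all alike) and because a read that falls between the capitals matches every copy. The mm9 positions on chromosome 9 are 88851889 to 88851978 (plus), 89094198 to 89094287 (plus) and 88626468 to 88626557 (minus) in the order shown.

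Bcl2a1a: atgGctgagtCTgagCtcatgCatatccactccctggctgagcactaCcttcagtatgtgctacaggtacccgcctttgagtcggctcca
Bcl2a1b: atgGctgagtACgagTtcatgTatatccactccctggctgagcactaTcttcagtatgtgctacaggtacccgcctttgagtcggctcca
Bcl2a1d: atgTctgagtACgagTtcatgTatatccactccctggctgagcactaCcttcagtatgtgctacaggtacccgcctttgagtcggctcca

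The RefSeq promoter windows of the copies (GRCm38.p6, all 10 members matched) share a stretch, and the windows as wholes were not compared. It is shown because it was picked as the part they have in common, 103 bases with 1 differing base in capitals, and it begins at -206, -250 and -200 from the RefSeq starts of Bcl2a1a, Bcl2a1b and Bcl2a1d, at chromosome 9 positions 88956714 to 88956816 (plus), 89199023 to 89199125 (plus) and 88731948 to 88732050 (minus).

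Bcl2a1a promoter: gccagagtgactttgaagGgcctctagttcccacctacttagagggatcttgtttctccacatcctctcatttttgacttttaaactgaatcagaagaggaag
Bcl2a1b promoter: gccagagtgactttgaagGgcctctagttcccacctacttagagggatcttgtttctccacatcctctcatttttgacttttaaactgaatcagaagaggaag
Bcl2a1d promoter: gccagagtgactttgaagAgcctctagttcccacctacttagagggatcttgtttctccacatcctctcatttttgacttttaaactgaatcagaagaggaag

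Reads with more than 1 alignment stayed out of the gene counts. Of all 50-base windows of the transcript, 31.2% were found in no other coding gene for Bcl2a1a, 21.0% for Bcl2a1b and 16.0% for Bcl2a1d, against 100% for Mcl1 and Bcl2l1 and 99.7% for Bcl2. Of the exon bases of Bcl2a1b, 49.1% are also annotated to Mthfs on the same strand. The counts of the A1 copies were therefore read together, with those of the fourth locus Bcl2a1c, and their true level can be higher than counted. Exons also overlap a gene on the opposite strand for Bad (Gpr137, 25.8% of exon bases), Bid (Bcl2l13, 17.7%), Bak1 (Ggnbp1, 14.8%) and Bcl2 (D630008O14Rik, 7.76%). Whether counting used strand is not given in the sources used here, so reads of each such pair may be mixed.

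The level of the members differed widely in uninduced cells. On the per-length scale (CPM per kb of exon, mean ± SD, n = 2), the order was Mcl1 (75.2 ± 1.7), Bak1 (67.3 ± 3.59), Bid (53.2 ± 7.18), Bad (32.4 ± 2.87), Bcl2 (8.49 ± 5.58), Bcl2l1 (7.82 ± 0.968), Bcl2l11 (2.20 ± 0.303) and the summed A1 copies (0.272 ± 0.310). Mcl1 was the most abundant survival transcript among the members, and neighbours in this order did not overlap between their 2 libraries, apart from Bcl2 and Bcl2l1, whose libraries were intermixed. The length taken was all annotated exon bases. The longest coding transcript is shorter for Bid (2415 against 3550 bases), Bcl2l1 (2417 against 4734), Bcl2l11 (5036 against 8029) and Bad (1451 against 2007). On that length these genes would stand higher, so the order depends on the length taken. In HOXA9 OFF cells Mcl1 stood at 171.7 ± 33.4 CPM per kb and Bcl2l11 at 8.59 ± 5.36 CPM per kb, and the A1 copies at 4.41 ± 1.92 CPM per kb. The A1 values were divided by all exon bases of a copy, although most windows of the copies are shared and such reads stayed uncounted. They can therefore be too low, and the place of A1 beside the other genes is uncertain.

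**Figure D1:**
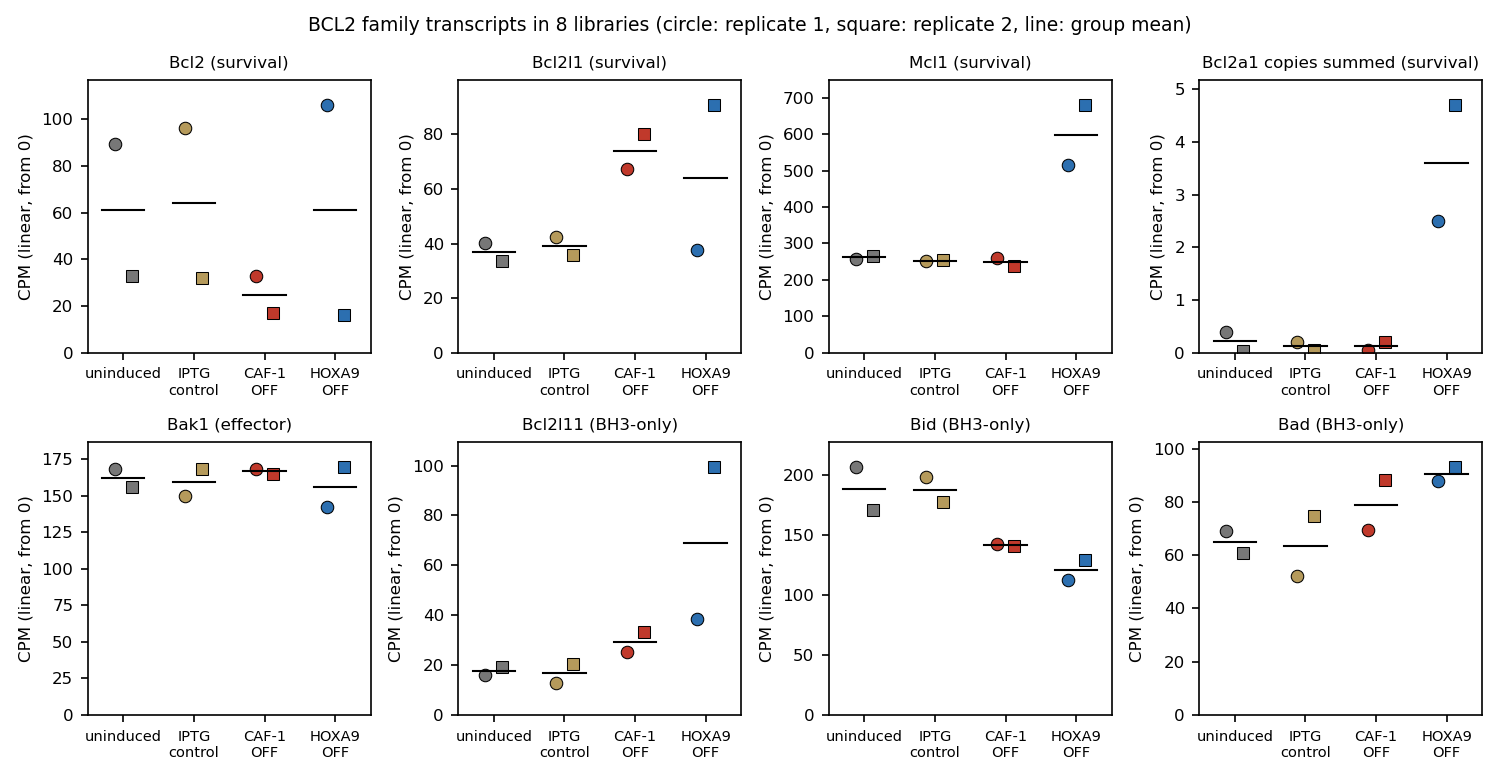
CPM of the BCL2 family transcripts in each of the 8 libraries (vertical axes linear from 0, 1 panel per gene, horizontal axis the 4 groups), with circles for replicate 1, squares for replicate 2 and a line at the group mean. Both HOXA9 OFF libraries lie above all others for Mcl1 and Bcl2l11, both CAF-1 OFF libraries lie above uninduced and IPTG control for Bcl2l1, and for Bcl2 the square lies under the circle in all 4 groups.

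The HOXA9 OFF comparison asks how the family changes during neutrophil differentiation. Mcl1 and Bcl2l11 rose, the A1 copies rose from near the detection floor, and Bid fell. A change was called at a false discovery rate (FDR, Benjamini-Hochberg over 13080 tested genes) under 0.05 and at least 1.5-fold in edgeR. Of 8 members that passed the filter on low counts, 4 were called in HOXA9 OFF against uninduced cells, 3 higher and 1 lower, where 47.2% of all tested genes were called, 25.2% higher and 22.1% lower. The share of called members was thus close to that of all genes. The libraries of both groups did not overlap for 5 tested members (Mcl1, Bcl2a1a, Bcl2l11 and Bad higher, Bid lower), against 78.1% of all tested genes. The median log2 fold change was 0.64 over the tested members and 0.01 over all genes. Bcl2a1b and Bcl2a1d failed the filter, and Bcl2a1a passed only through the HOXA9 OFF libraries, so its change was in part set by the filter. Bcl2a1a is 1 of the 4 called members, and the other 3 are Mcl1, Bcl2l11 and Bid. Without the scaling factors between libraries, the median of all genes moved from 0.01 to -0.18 and the share of calls that were higher from 53.3% to 42.3%, and the 4 members remained called in their directions.

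Mcl1 (chromosome 3, 95462643 to 95467099, plus strand) encodes a short-lived survival protein. Its level was 257.9 and 266.3 CPM in uninduced libraries, 252.0 and 254.1 CPM in IPTG control, 260.7 and 239.2 CPM in CAF-1 OFF and 516.2 and 680.6 CPM in HOXA9 OFF. The 6 libraries with active HOXA9 lay close together and both HOXA9 OFF libraries were far above them. The log2 fold change of HOXA9 OFF over uninduced cells was 1.19 (SE 0.14, edgeR FDR 0.000244), a 2.28-fold rise.

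The A1 copies were almost silent while HOXA9 was active. Counts summed over the copies were 9 and 1 in uninduced, 3 and 1 in IPTG control, 1 and 4 in CAF-1 OFF and 46 and 95 in HOXA9 OFF libraries. Each named copy was highest in the HOXA9 OFF libraries, with 26 and 44 counts for Bcl2a1a, 10 and 26 for Bcl2a1b and 9 and 18 for Bcl2a1d, and no other library held more than 6 counts of any copy. The summed level was 3.60 ± 1.56 CPM in HOXA9 OFF and 0.222 ± 0.253 CPM in uninduced libraries (SD, n = 2). Pooled over libraries, 141 against 10 counts gave a ratio of 16.7 (95% interval 8.84 to 35.7, counting error only), with a fitted log2 fold change of 3.998 (SE 0.862, edgeR FDR 0.00512). The sum, like Bcl2a1a, passed the filter on low counts only through the HOXA9 OFF libraries, so its place in this test was in part set by its outcome. In a fit with no filter its log2 fold change was 3.96 (edgeR FDR 0.00105). Of the 10 uninduced counts, 9 came from replicate 1, and the log2 fold change of the sum was 3.15 without uninduced replicate 2 and 6.19 without replicate 1. For Bcl2a1a it was 3.496 with all libraries, and 2.72 and 5.19 in the same order. Bcl2a1a gave 70 against 7 counts, a ratio of 11.9 (5.47 to 30.6). Bcl2a1d gave 27 against 3 counts, a ratio of 10.7 (3.29 to 55.1). Bcl2a1b had 36 against 0 counts and was at least 6.86-fold higher, taking 3 counts in the smaller uninduced library as the floor. Bcl2a1a as a single copy had an edgeR FDR of 0.00787 under the same limit and of 0.00443 with no filter, but without uninduced replicate 2 it was 0.0593.

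Bcl2l11 (chromosome 2, 127951774 to 127988283, plus strand) encodes BIM, which binds all survival proteins of the family and can activate the effectors. It was at 15.9 and 19.4 CPM in uninduced libraries, 13.0 and 20.4 CPM in IPTG control, 25.3 and 33.2 CPM in CAF-1 OFF and 38.5 and 99.4 CPM in HOXA9 OFF. The groups were ordered without overlap, except that uninduced and IPTG control intermixed, and the 2 HOXA9 OFF libraries stood far apart. Replicate 2 of HOXA9 OFF also stood apart in macrophage markers, with C1qb at 0.434 CPM in replicate 1 and 120.7 CPM in replicate 2, C1qa at 0 and 4.41 CPM and Csf1r at 465 and 852.6 CPM, but Emr1 at 493.3 and 436.2 CPM. The part of this in the Bcl2l11 value, and in that of Bcl2l1 below, was not tested. The log2 fold change in HOXA9 OFF was 1.97 (SE 0.428, edgeR FDR 0.00537). It was 1.13 without replicate 2 of HOXA9 OFF and 2.49 without replicate 1, with edgeR FDR values of at most 0.0465 when any 1 of the 4 libraries of these groups was left out.

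Bid (chromosome 6, 120841948 to 120866871, minus strand) links death receptors to mitochondria after its cleavage by caspase-8. It was at 207.0 and 170.9 CPM in uninduced libraries, 198.4 and 177.9 CPM in IPTG control, 142.7 and 140.9 CPM in CAF-1 OFF and 112.4 and 129.4 CPM in HOXA9 OFF. Both induced groups lay under both control groups with no overlap, and HOXA9 OFF lay lowest. The log2 fold change in HOXA9 OFF was -0.64 (SE 0.126, edgeR FDR 0.00323). This size is just past 1.5-fold, and the change was -0.50 without uninduced replicate 1 and -0.55 without HOXA9 OFF replicate 1, both smaller than 1.5-fold.

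The other tested members gave no call in HOXA9 OFF against uninduced cells in the main edgeR fit. Bad, a BH3-only protein restrained by growth factor signalling, was at 87.9 and 93.1 CPM against 69.1 and 60.9 CPM in uninduced libraries, a log2 difference of 0.48 (95% interval 0.04 to 0.91, edgeR FDR 0.0607). Bak1 was at 141.9 and 169.5 CPM against 168.2 and 156.0 CPM, a log2 difference of -0.06 (-0.33 to 0.21, edgeR FDR 0.692), which leaves room for no change past 1.5-fold. Bcl2l1 was at 37.5 and 90.8 CPM in HOXA9 OFF, so that replicate 1 lay within the uninduced range and replicate 2 lay far above it. The log2 difference of Bcl2l1 was 0.79 (edgeR FDR 0.0904), and without HOXA9 OFF replicate 1 it was 1.30, so its size depends on 1 library. Of the 12 alternatives that kept every library of both groups, 1 called Bcl2l1 higher (FDR 0.0288).

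**Figure D2:**
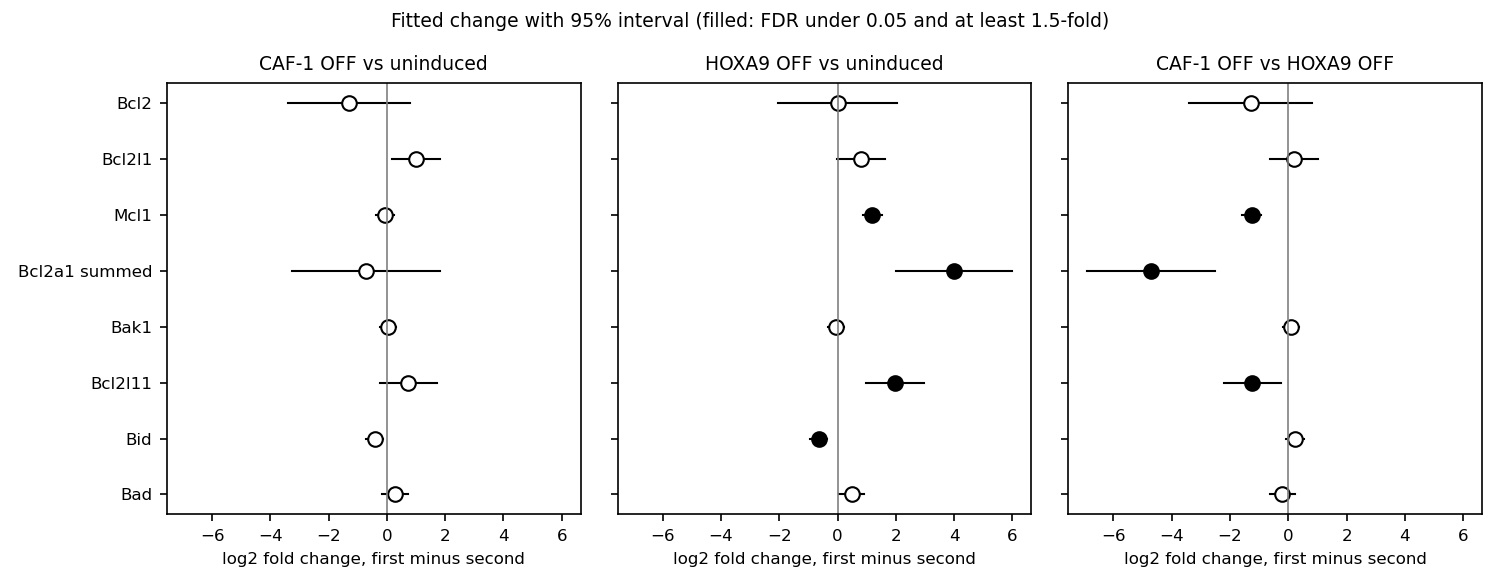
Fitted log2 fold change (horizontal axes, the same scale in all panels) with its 95% interval for 7 members and the summed Bcl2a1 copies (vertical axis), for CAF-1 OFF against uninduced, HOXA9 OFF against uninduced and CAF-1 OFF against HOXA9 OFF. Filled points mark calls at FDR under 0.05 and at least 1.5-fold, which are Mcl1, the A1 copies and Bcl2l11 in the panels that involve HOXA9 OFF, Bid in HOXA9 OFF against uninduced, and none in CAF-1 OFF against uninduced.

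The CAF-1 OFF comparison asks whether the family changes when the cells differentiate with HOXA9 still active. In CAF-1 OFF against uninduced cells 0 of the 8 tested members were called in edgeR, where 14% of all tested genes were called, 10.5% higher and 3.5% lower. There were 2 members at an unadjusted p under 0.05, Bcl2l1 and Bid, while DESeq2 and the edgeR exact test called 1 each, and edgeR with the replicate number as a block called 1, Bcl2. The libraries of both groups did not overlap for 4 tested members (Bcl2l1, Bcl2l11 and Bad higher, Bid lower), and this held for 68.3% of all tested genes. The median log2 fold change was -0.01 over the tested members and 0.01 over all genes.

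Bcl2l1 (chromosome 2, 152593052 to 152657464, minus strand) encodes BCL-XL, a long-lived survival protein known for its role in erythroid cells and platelets. It measured 67.5 and 80.2 CPM in CAF-1 OFF, 40.3 and 33.8 CPM in uninduced libraries and 42.4 and 35.7 CPM in IPTG control. Both CAF-1 OFF libraries lay above all 4 control libraries. The log2 difference from uninduced cells was 1.00 (SE 0.356, 95% interval 0.17 to 1.82) and did not pass (edgeR FDR 0.0847). It was called without a filter on low counts (edgeR FDR 0.0401), by the edgeR exact test (FDR 0.0359), by DESeq2 (FDR 0.0167) and in an edgeR fit of only the 4 libraries compared (FDR 0.00741). The size was between 0.97 and 1.04 in all 12 alternatives that kept every library of both groups, and the spread used in the test came in part from HOXA9 OFF, whose libraries differ most for this gene. The 4 megakaryocyte markers, of which 3 were above 3 counts and 1 was at 0 in every library, summed to between 23.3 and 29.2 CPM in uninduced and IPTG control libraries, to 187.6 and 213 CPM in CAF-1 OFF and to 127 and 123.1 CPM in HOXA9 OFF, while the 5 erythroid markers summed to at most 3.42 CPM in any library. Within the HOXA9 OFF sum, the megakaryocyte marker Pf4 was at 1.25 CPM in replicate 1 and 20.8 CPM in replicate 2, the library in which Bcl2l1 was also higher. The other detected markers went the other way, with Itga2b at 114.2 and 93.2 CPM and Gp9 at 11.55 and 9.07 CPM. The 4 mast cell or basophil markers summed to between 136.3 and 215.9 CPM outside CAF-1 OFF and to 1031 and 650.3 CPM within it. Their part in the Bcl2l1 value was not tested.

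Mcl1 differed from uninduced cells by -0.07 on the log2 scale in CAF-1 OFF (95% interval -0.39 to 0.25, edgeR FDR 0.754), an interval that holds no 1.5-fold change in either direction. Bak1 differed by 0.04 (-0.23 to 0.31, edgeR FDR 0.833), and its interval also lies within 1.5-fold. The A1 copies had 5 counts in CAF-1 OFF against 10 in uninduced cells, too few to show a change at this depth. Bid differed by -0.41 (SE 0.126, edgeR FDR 0.0539), Bcl2l11 by 0.73 (SE 0.421, edgeR FDR 0.25) and Bad by 0.28 (edgeR FDR 0.324). Bcl2l11 was called in an edgeR fit of only the libraries compared, without (FDR 0.0338) and with (FDR 0.0348) the replicate block, and against IPTG control only with that block (0.84, FDR 0.0251).

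Bcl2 (chromosome 1, 108434755 to 108610851, minus strand) is the founding survival gene. It was at 89.4 and 32.7 CPM in uninduced libraries, 96.3 and 31.9 CPM in IPTG control, 33.0 and 16.8 CPM in CAF-1 OFF and 106.2 and 16.1 CPM in HOXA9 OFF. Replicates of one group differed by 1.96-fold in CAF-1 OFF to 6.60-fold in HOXA9 OFF, while the fitted change between any pair of groups compared was at most 2.57-fold. The log2 difference of CAF-1 OFF from uninduced cells was -1.29 (95% interval -3.39 to 0.81, edgeR FDR 0.34) and that of HOXA9 OFF was 0.00 (-2.04 to 2.04, edgeR FDR 1). In this fit the intervals are too wide to tell a fall, a rise or no change apart. Replicate 2 was the lower library in all 4 groups, and CAF-1 OFF lay under both control groups within each replicate number. With the replicate number as a block, Bcl2 was called lower in CAF-1 OFF, by -1.18 against uninduced cells (edgeR FDR 0.0472) and -1.22 against IPTG control (edgeR FDR 0.0483), but not called in HOXA9 OFF (-0.28, edgeR FDR 0.513). The labels do not say what libraries of one number share.

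IPTG by itself served as the control for the inducer. In IPTG control against uninduced cells 0 of 8 tested members were called in edgeR, as for 0% of all tested genes, and 0 members had an unadjusted p under 0.05, nor did DESeq2 call any. Only Mcl1 had libraries that did not overlap, as 18.3% of all tested genes had. The 4 highest members on the CPM scale differed by at most 0.05 on the log2 scale (Mcl1 -0.05, Bid -0.01, Bak1 -0.03, Bad -0.03). Against IPTG control in place of uninduced cells, CAF-1 OFF again gave 0 calls among the 8 members in edgeR, where 12.8% of all tested genes were called, 9.56% higher and 3.2% lower, with 2 members at an unadjusted p under 0.05 and 1 call in DESeq2. The libraries did not overlap for 3 members (Bcl2l1 and Bcl2l11 higher, Bid lower), against 68.8% of all tested genes. Bcl2l1 differed by 0.92 (SE 0.357, edgeR FDR 0.11), Bid by -0.41 (edgeR FDR 0.0607) and Mcl1 by -0.02 (edgeR FDR 0.942). Both comparisons of CAF-1 OFF share its 2 libraries.

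Both induced states were then compared directly. Of the 8 tested members, 3 were lower in CAF-1 OFF than in HOXA9 OFF cells and 0 were higher, where 43.5% of all tested genes were called, 21.4% lower and 22.2% higher. One of the 3 was Bcl2a1a, which passed the filter only through the HOXA9 OFF libraries, so that its place among the tested genes and its direction were in part set by the filter. The libraries did not overlap for 4 members (Mcl1, Bcl2a1a and Bcl2l11 lower, Bid higher), against 78.2% of all tested genes. Without the scaling factors the median of all genes moved from 0.04 to 0.27 and the share of calls that were higher from 50.9% to 65.7%. The log2 difference of CAF-1 OFF minus HOXA9 OFF was -1.26 for Mcl1 (SE 0.14, edgeR FDR 0.000265). The A1 copies had 141 counts in HOXA9 OFF against 5 in CAF-1 OFF, a ratio of 27.9 (11.7 to 87.1, counting error only), with an edgeR FDR of 0.0041 for the sum, which also passed the filter only through HOXA9 OFF, and of 0.000636 in a fit with no filter. Bcl2a1a, with 70 against 2 counts, had a ratio of 34.6 (9.22 to 291) and an edgeR FDR of 0.00419, or 0.00135 with no filter. Bcl2l11 differed by -1.24 (SE 0.418, edgeR FDR 0.0373), a call that was lost without HOXA9 OFF replicate 2 (-0.41, edgeR FDR 0.267), without CAF-1 OFF replicate 1 (edgeR FDR 0.174) or replicate 2 (edgeR FDR 0.088), without the scaling factors (edgeR FDR 0.0767), with only the groups compared (edgeR FDR 0.0914), by glmTreat against 1.5-fold (edgeR FDR 0.122) and at FDR 0.01 with 2-fold. Bcl2l1 differed by 0.20 (95% interval -0.61 to 1.02, edgeR FDR 0.653), but by 0.97 without HOXA9 OFF replicate 2 (edgeR FDR 0.00424). Bcl2 differed by -1.29 (edgeR FDR 0.259), and by -2.10 without HOXA9 OFF replicate 2 (edgeR FDR 0.0407) and 0.62 without its replicate 1.

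The make-up of the survival members was computed per library on the per-length scale, as the share of each gene in the sum of Bcl2, Bcl2l1, Mcl1 and the A1 copies. Mcl1 held 77.5% and 86.7% of the sum in uninduced cells, 76.2% and 85.8% in IPTG control, 79.8% and 77.8% in CAF-1 OFF and 85.2% and 87.8% in HOXA9 OFF. Bcl2l1 held 8.91% and 8.10% in uninduced, 9.43% and 8.88% in IPTG control, 15.2% and 19.2% in CAF-1 OFF and 4.55% and 8.62% in HOXA9 OFF, so that both CAF-1 OFF libraries were above the other 6. Bcl2 exceeded Bcl2l1 in replicate 1 of uninduced (ratio 1.46), IPTG control (1.5) and HOXA9 OFF (1.87) and was under it in replicate 2 of these groups (0.637, 0.587 and 0.117). In CAF-1 OFF it was under Bcl2l1 in both libraries, with ratios of 0.322 and 0.138. These ratios and the Bcl2l1 shares depend on the length taken. Bcl2l1 has 4734 annotated exon bases but 2417 bases in its longest coding transcript, while Bcl2 has 7191 by both. On transcript length Bcl2l1 would stand higher, so whether Bcl2 exceeded it in any library is uncertain. Bcl2l2 (BCL-W), a survival gene that is no member and was named after its values were seen, is not in this sum. Its level was 7.42 and 7.30 CPM per kb in uninduced cells, 7.77 and 7.67 in IPTG control, 11.9 and 11.99 in CAF-1 OFF and 10.0 and 8.54 in HOXA9 OFF. With Bcl2l2 counted in, the Bcl2l1 share was 13.5% and 16.9% in CAF-1 OFF and at most 8.72% elsewhere. The sum of the members was between 85.0 and 95.4 CPM per kb in the 6 libraries with active HOXA9 and 173.9 and 222.5 CPM per kb in HOXA9 OFF. The A1 part of the shares and of the sum is as counted and can be too low, since most windows of the copies are shared. These shares are descriptions of 2 libraries a group, and transcript shares are not protein shares.

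**Figure D3:**
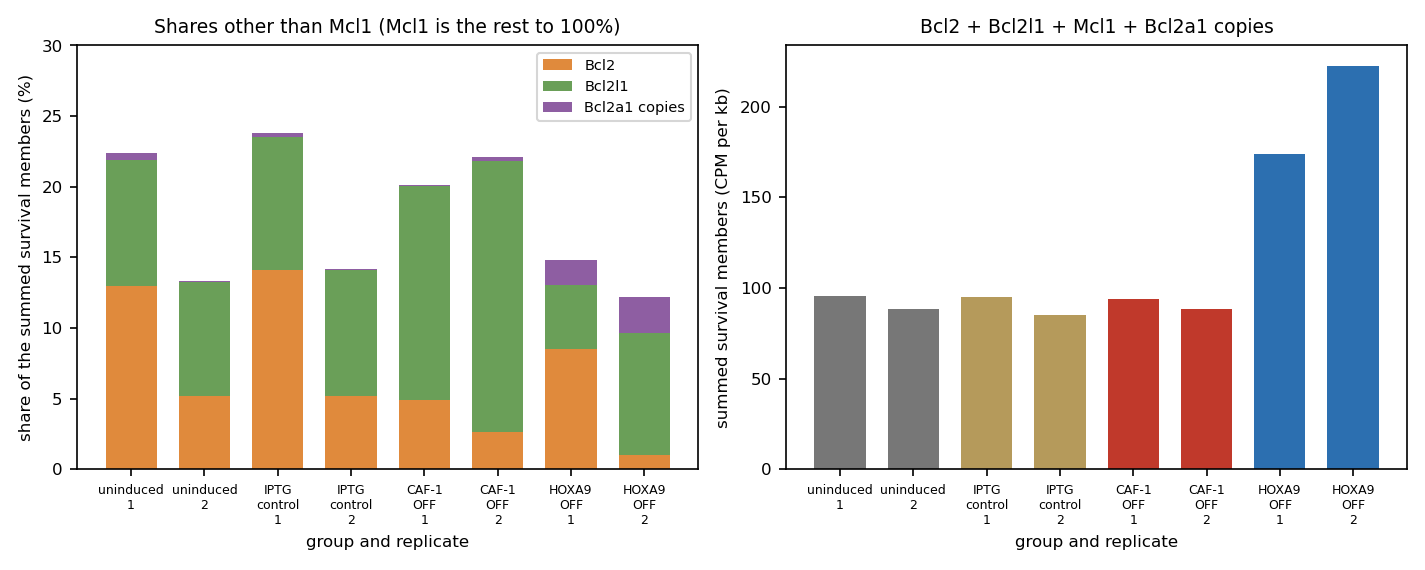
Left, the share of Bcl2, Bcl2l1 and the Bcl2a1 copies in the summed survival members of each library (vertical axis in percent from 0, stacked bars, with Mcl1 as the rest to 100%). Right, the sum itself in CPM per kb. The Bcl2l1 share is 15.2% and 19.2% in CAF-1 OFF and under 10% elsewhere, and the sum is 173.9 and 222.5 in HOXA9 OFF against 95.4 or less elsewhere. All annotated exon bases were taken as gene length, and the Bcl2a1 part is as counted and can be too low.

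The BH3-only gene Bcl2l11 and a survival partner of its protein, Mcl1, rose together in HOXA9 OFF cells. On the per-length scale Bcl2l11 was 2.68% and 3.16% of Mcl1 in uninduced cells, 2.24% and 3.48% in IPTG control, 4.21% and 6.03% in CAF-1 OFF and 3.24% and 6.34% in HOXA9 OFF. Both CAF-1 OFF libraries were above all 4 control libraries, and the HOXA9 OFF libraries spanned from inside the control range to the highest value.

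The promoters of the members were searched on both strands for the ETS core CCGGAA, since ETS factors are active in myeloid cells. It was present in a RefSeq promoter window of 5 of the 10 members (Bad, Bcl2l1, Bcl2l11, Bid and Mcl1) and in 14.9% of 32851 promoter windows of 300 bases, and members can have several windows. A C/EBP motif, TTGCNNAA, was present only for Bid among the members (10.8% of all windows), and the kappaB motif only for Bcl2l1 (8.46%). Stretches of 90 bases are shown for the 3 single-copy members called in HOXA9 OFF, with the ETS core in capitals, because the core is found in genes that moved in opposite directions. It reads CCGGAA in the Mcl1 stretch and TTCCGG, its reverse complement on the opposite strand, in those of Bcl2l11 and Bid. In GRCm38.p6 they lie at chr3:95658631-95658720 (plus), chr2:128125892-128125981 (plus) and chr6:120916922-120917011 (minus). A match is a string of letters and not a measured site.

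Mcl1 promoter: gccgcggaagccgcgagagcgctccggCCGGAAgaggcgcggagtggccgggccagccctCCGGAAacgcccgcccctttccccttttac
Bcl2l11 promoter: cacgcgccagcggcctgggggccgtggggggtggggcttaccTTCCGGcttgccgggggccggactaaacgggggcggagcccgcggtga
Bid promoter: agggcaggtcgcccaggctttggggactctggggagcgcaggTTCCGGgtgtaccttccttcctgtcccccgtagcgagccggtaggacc

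The genes whose group means followed the same course were sought among 9833 other genes over the 4 groups (8 libraries), by the root mean square difference of centred log2 CPM. For Mcl1 they included Pgm2l1 (0.013) and Ctps2 (0.013). For Bcl2l11 they were H2-DMa (0.019), Hdc (0.025) and Parp9 (0.041). For Bcl2a1a they were Ap1s2 (0.117), Pstpip2 (0.165) and Sat1 (0.184), and for Bcl2, whose group means are uncertain, Nudt1 (0.06), Cyb5r1 (0.06) and Ano8 (0.07). With 4 group means, such likeness is a description.

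Some other genes of the family changed in CAF-1 OFF. Of 16 further family genes, 11 were tested, and 5 rose and 0 fell in CAF-1 OFF against uninduced cells, where 10.5% of all tested genes were called higher and 3.5% lower. Against IPTG control the counts were also 5 and 0. In HOXA9 OFF 4 rose and 0 fell, where 25.2% of all tested genes were called higher and 22.1% lower. The median log2 fold change of these 11 genes was 0.00 in CAF-1 OFF and 0.33 in HOXA9 OFF, against 0.01 over all genes in each. Bmf, a BH3-only gene linked to cell detachment and the cytoskeleton, was at 1.42 and 2.52 CPM in uninduced libraries, 1.55 and 2.82 CPM in IPTG control, 6.26 and 10.8 CPM in CAF-1 OFF and 60.6 and 43.7 CPM in HOXA9 OFF. The 3 levels did not overlap. Its log2 fold change was 2.10 in CAF-1 OFF (SE 0.408, edgeR FDR 0.015) and 4.72 in HOXA9 OFF (SE 0.433, edgeR FDR 7.94e-05), and the direct difference of CAF-1 OFF minus HOXA9 OFF was -2.61 (edgeR FDR 0.00101).

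Pmaip1 encodes NOXA, a BH3-only protein that binds MCL1. It was at 45.3 and 41.0 CPM in uninduced libraries, 42.2 and 31.6 CPM in IPTG control, 76.0 and 77.7 CPM in CAF-1 OFF and 88.4 and 76.5 CPM in HOXA9 OFF. Both induced groups lay above both control groups. The log2 fold changes were 0.83 in CAF-1 OFF (SE 0.155, edgeR FDR 0.0133) and 0.93 in HOXA9 OFF (SE 0.155, edgeR FDR 0.00141). Bcl2l2 rose by 0.70 in CAF-1 OFF (edgeR FDR 0.00967) and by 0.63 against IPTG control (edgeR FDR 0.0144), and in HOXA9 OFF its difference of 0.33 (edgeR FDR 0.038) was under 1.5-fold. Bcl2l14 rose by 1.38 in CAF-1 OFF (edgeR FDR 0.0195) and by 1.26 in HOXA9 OFF (edgeR FDR 0.00777), from 2.77 ± 0.0767 CPM. The effector Bax, at 97.1 ± 1.95 CPM in uninduced libraries, differed by -0.09 in CAF-1 OFF (edgeR FDR 0.818) and 0.13 in HOXA9 OFF (edgeR FDR 0.653). In CAF-1 OFF against HOXA9 OFF 3 of the 11 genes were lower and 1 was higher, beside 21.4% and 22.2% of all tested genes. Lower were Bmf, the proapoptotic Bbc3 (PUMA) by -0.76 (edgeR FDR 0.0133) and Bnip3l, a mitophagy receptor, by -0.97 (edgeR FDR 0.00155). Higher was Bcl2l15, named here after its values were seen, by 2.30 (edgeR FDR 0.00944), from 8 and 4 counts in HOXA9 OFF to 33 and 27 counts in CAF-1 OFF. Bbc3 was at 14.86 and 14.92 CPM in uninduced, 14.90 and 14.84 CPM in IPTG control, 10.3 and 9.87 CPM in CAF-1 OFF and 14.1 and 20.1 CPM in HOXA9 OFF libraries. Bnip3, not called in CAF-1 OFF, was at 93.4 ± 1.13 CPM in uninduced, 47.8 ± 14.3 CPM in CAF-1 OFF and 55.1 ± 41.3 CPM in HOXA9 OFF libraries.

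The NF-kappaB genes, whose factors are known to drive Bcl2a1 and Bcl2l1 transcription, were read beside the A1 copies. Of 7 tested genes, 6 rose in HOXA9 OFF and 2 in CAF-1 OFF against uninduced cells, and 0 fell in either, beside 25.2% and 10.5% of all tested genes called higher. All 7 were lower in CAF-1 OFF than in HOXA9 OFF, as were 21.4% of all tested genes. Against IPTG control 1 of the 7 was called in CAF-1 OFF, Nfkbia (1.08, edgeR FDR 0.0096). The median log2 fold change of the 7 was 1.84 in HOXA9 OFF and 0.46 in CAF-1 OFF. Tnfaip3, a feedback inhibitor, rose from 4.38 ± 1.17 to 32.5 ± 7.16 CPM in HOXA9 OFF (log2 fold change 2.89, SE 0.26, edgeR FDR 7.2e-05) and to 8.54 ± 0.846 CPM in CAF-1 OFF (0.96, SE 0.251, edgeR FDR 0.034), but against IPTG control the CAF-1 OFF difference was 0.80 and not called (edgeR FDR 0.0651). The inhibitor Nfkbia rose by 2.06 in HOXA9 OFF (edgeR FDR 4.98e-05) and by 0.95 in CAF-1 OFF (edgeR FDR 0.0114). Rel, the subunit most tied to A1, rose by 2.25 in HOXA9 OFF (SE 0.232, edgeR FDR 0.000133). The part of these genes in the values of the A1 copies and Bcl2l1 was not tested.

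Of 8 tested death receptor genes, 5 rose and 0 fell in HOXA9 OFF, and 2 rose and 0 fell in CAF-1 OFF against uninduced cells, beside 25.2% and 10.5% of all tested genes called higher. Against IPTG control 0 were called in CAF-1 OFF in edgeR, with 6 at an unadjusted p under 0.05, where Tnfrsf1a and Tnfrsf1b both differed by 0.57 (edgeR FDR 0.0144 and 0.0123), under 1.5-fold. Fas, the receptor upstream of Bid, measured 1.51 and 1.11 CPM in uninduced libraries, 20.2 and 23.1 CPM in HOXA9 OFF and 1.68 and 15.9 CPM in CAF-1 OFF. Both HOXA9 OFF libraries and replicate 2 of CAF-1 OFF were high, and replicate 1 of CAF-1 OFF stayed near the uninduced level. The log2 fold change was 4.04 in HOXA9 OFF (SE 0.89, edgeR FDR 0.0057) and 2.74 in CAF-1 OFF (edgeR FDR 0.0599). Tnfrsf1b rose by 2.25 in HOXA9 OFF (edgeR FDR 1.19e-05) and by 0.61 in CAF-1 OFF (edgeR FDR 0.00886). Tnfrsf1a rose by 1.91 in HOXA9 OFF (edgeR FDR 1.57e-05) and by 0.64 in CAF-1 OFF (edgeR FDR 0.00945).

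**Figure D4:**
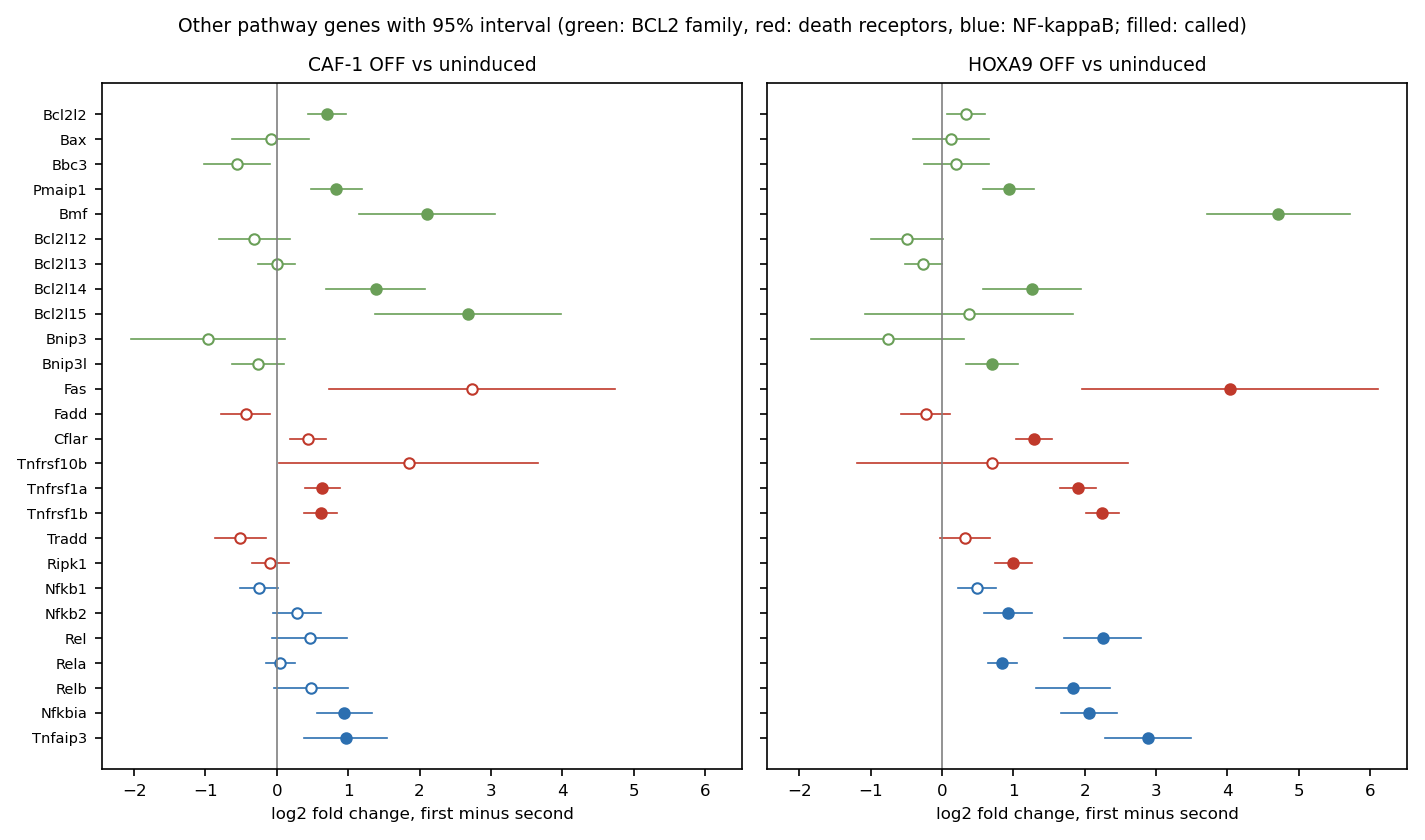
Log2 fold change with its 95% interval (horizontal axes, the same scale in both panels) for the other tested BCL2 family genes (green), death receptor genes (red) and NF-kappaB genes (blue), in CAF-1 OFF and HOXA9 OFF against uninduced cells. Filled points mark calls, which are 5, 2 and 2 genes in CAF-1 OFF and 4, 5 and 6 genes in HOXA9 OFF.

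Downstream of the mitochondria the share of genes called was close to that of all genes. Of 18 tested genes of the apoptosome, caspases and their inhibitors, 5 rose and 3 fell in HOXA9 OFF and 1 rose and 1 fell in CAF-1 OFF, where 47.2% and 14% of all tested genes were called. The 5 that rose in HOXA9 OFF included the inhibitor of apoptosis protein Birc3, by 1.70 (edgeR FDR 0.000125), and Apaf1, the scaffold of the apoptosome, by 1.44 (edgeR FDR 9.54e-05). The 3 that fell were the mitochondrial protease Htra2 (-1.60, edgeR FDR 3.16e-05), the mitochondrial nuclease Endog (-1.55, edgeR FDR 0.00155) and Diablo (-1.12, edgeR FDR 0.000238). Other mitochondrial proteins of the list were not called, with cytochrome c (Cycs) at -0.55 (edgeR FDR 0.109) and Aifm1 at -0.11 (edgeR FDR 0.419). In CAF-1 OFF the log2 fold change of Dffb, the nuclease that cuts DNA in apoptosis, was -0.94 (edgeR FDR 0.015). Diablo, an antagonist of inhibitors such as Birc3, differed from uninduced cells by 0.21 in CAF-1 OFF (edgeR FDR 0.282) and was 2.50-fold higher there than in HOXA9 OFF (edgeR FDR 0.000163). Of 7 genes for MCL1 and BIM turnover and BAK partners, 0 rose and 2 fell in HOXA9 OFF, where 22.1% of all tested genes were called lower. These were the MCL1 ubiquitin ligase Huwe1 (-0.67, edgeR FDR 0.0255) and the channel Vdac1 (-0.70, edgeR FDR 0.000562). Of the same genes, 1 fell in CAF-1 OFF, Vdac3 (-0.59, edgeR FDR 0.0147), where 3.5% of all tested genes were called lower. Against IPTG control 0 of the 7 were called in CAF-1 OFF in edgeR, with 3 at an unadjusted p under 0.05, and Vdac3 differed by -0.55 (edgeR FDR 0.0193), under 1.5-fold.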

How the data were processed

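Libraries of bulk RNA from iGMPs, 8 in all, were made by the authors with a directional NEBNext kit. The authors mapped them to mm9 with STAR and counted them per gene with HTSeq-count, and the deposited values are raw counts per gene symbol, with no normalization. Reads with several alignments were kept apart from genes, and the strand setting and annotation are not given in the sources used here. The 10 members and all gene lists were chosen with earlier results of these data known. Groups and replicate numbers came from the labels.

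The analysis used edgeR 4.0.16 under R 4.3.3: filterByExpr (minimum count 10), TMM scaling, 1 quasi-likelihood fit of all 8 libraries with a mean per group, glmQLFTest, and Benjamini-Hochberg adjustment over 13080 genes. Standard errors came from the F statistic, and CPM used TMM-scaled totals. The biological coefficient of variation was 18.9%. Between replicates the chi-square per degree of freedom was from 16.6 to 78.2, so no library was counted as a repeat. The floor was 3 counts, and intervals of count ratios (exact, 95%) cover counting error only. Gene spans and exon lengths came from GENCODE vM1 on mm9, and promoters from RefSeq on GRCm38.p6. The code was tested on simulated data.

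Genes named were the members, Chaf1b, from each other list up to 3 called genes per comparison with the largest change, a mean of 2 or more on the log2 CPM scale and no overlap of the groups, and 3 pattern neighbours per member whose group means span at least 1 on the log2 scale. Bax was named after its values were seen, and so were Bcl2l2, Bcl2l15, Bnip3, Apaf1, Cycs, Aifm1 and Diablo in HOXA9 OFF, Fas in CAF-1 OFF and the cell type markers given singly. Some genes that met the rule are not reported here.

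Alternatives were DESeq2 size factors, library size only, CPM on raw totals, no filter, a filter at a mean of 50 counts, the edgeR exact test, DESeq2 1.42.0, glmTreat, a block for the replicate number, only the groups compared, FDR 0.01 with 2-fold, FDR 0.05 with no fold, and each library left out. Only the groups compared together with the block, and Bcl2l2 in the survival sum, were added after seeing the data.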

Additional observations from a re-analysis of the deposited data

How the results depend on the processing

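Of the members and comparisons, the direct calls of Mcl1 and of the summed Bcl2a1 copies in HOXA9 OFF, and of Bcl2l11 in HOXA9 OFF against uninduced cells, held in every alternative that could be fitted; at a mean of 50 counts the Bcl2a1 copies could not be. The copies passed the filter only through HOXA9 OFF, so apart from the fit with no filter this adds no support for them. The log2 fold change against uninduced cells was from 1.00 to 1.21 for Mcl1 and from 3.82 to 4.04 for the sum, and from 0.979 to 1.38 and from 3.15 to 6.19 with 1 library left out. The number of members called in CAF-1 OFF against uninduced cells, 0, became 1 with no filter on low counts, in DESeq2, in the edgeR exact test and with the replicate block, 2 with only the groups compared and 3 with only those groups and the replicate block. Against IPTG control, 0 became 1 in DESeq2, with only the groups compared and with the replicate block, and 3 with only those groups and the block. In CAF-1 OFF against HOXA9 OFF, 3 became 5 with no filter, which adds Bcl2a1b and Bcl2a1d to the genes tested, and 2 with library size only, at a mean of 50 counts, by glmTreat, at FDR 0.01 with 2-fold and with only the groups compared. It was from 2 to 5 with 1 library left out. In HOXA9 OFF against uninduced cells, 4 was from 3 to 6. Where not stated, the cause was not tested.

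The log2 fold change of Bcl2 in HOXA9 OFF against uninduced cells, 0.001, became -0.186 with library size only, -0.021 with no filter, -0.003 at a mean of 50 counts, -0.277 with the replicate block, -0.016 with only the groups compared and -0.38 with both. Library size only also turned Mcl1 (0.029) and the summed Bcl2a1 copies (0.03) in CAF-1 OFF against IPTG control, and Bad in CAF-1 OFF against HOXA9 OFF (0.032). None of these was called.

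With 1 library of the groups compared left out, changes of direction occurred for results that were not called. Against uninduced cells the ranges in CAF-1 OFF were -4.616 to 0.253 for Bcl2a1a, -1.936 to 1.473 for the summed Bcl2a1 copies and -0.017 to 0.091 for Bak1, and in HOXA9 OFF -1.922 to 0.898 for Bcl2 and -0.191 to 0.065 for Bak1. For the sum in IPTG control they were -1.744 to 1.494. In CAF-1 OFF against IPTG control they were -3.468 to 0.6 for Bcl2a1a, -1.235 to 0.999 for the sum, -0.104 to 0.043 for Mcl1 and -0.038 to 0.15 for Bak1. In CAF-1 OFF against HOXA9 OFF they were -2.104 to 0.618 for Bcl2, -0.307 to 0.969 for Bcl2l1 and -0.034 to 0.222 for Bak1.

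What libraries of one number have in common is not in the labels. Deviations of same-numbered libraries from the group means correlated across genes at 0.475 for uninduced and IPTG control, 0.301 for uninduced and HOXA9 OFF and 0.316 for IPTG control and HOXA9 OFF, but at -0.044, -0.017 and 0.076 for the pairs with CAF-1 OFF, so the numbers were not taken to pair the samples. With the replicate block, Bcl2 in CAF-1 OFF was at -1.18 against uninduced cells (edgeR FDR 0.0472) and -1.22 against IPTG control (edgeR FDR 0.0483), and no other member gained or lost a call.

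On raw totals, 33 of 40 group mean levels moved by less than the SD of the replicates, and the ratios to the reported levels were from 0.896 to 1.06. With 2 libraries a group, the interval of Bcl2 in the fit without the block spanned a fall and a rise, and for the Bcl2a1 copies depth was the limit.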

Other observations

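Bcl2 was lower in replicate 2 than in replicate 1 in 4 of 4 groups. In an edgeR fit with the replicate number beside the groups, the log2 difference of replicate 2 minus replicate 1 was -1.68, or 3.21-fold (unadjusted p = 0.000255, edgeR FDR 0.098 over 13080 genes). Bcl2l11 was higher in replicate 2 in 4 of 4 groups, by 0.68 (edgeR FDR 0.25). In that fit 1529 genes (11.7%) had an unadjusted p under 0.05 and 2 passed an FDR of 0.05. The labels do not say what a replicate number stands for.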
